A study of Drosophila melanogaster with 2 samples.

Results

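The intergenic bound regions of the transcription factor dimm are the bound regions whose summit, the position of the highest signal, lies outside every annotated gene and more than 500 bp from any annotated transcription start site (TSS). There were 272 of them among 1739 bound regions (15.6%, 95% Wilson interval 14.0 to 17.4%, counting error only). The others comprised 754 promoter regions, with a summit within 500 bp of a TSS, 650 intronic and 63 exonic regions. Location alone chose the 272, from a list that had already passed the authors' threshold on reproducibility between the replicates. In each replicate's own thresholded list the same rule found 179 of 1176 regions (15.2%) in replicate 1 and 142 of 1114 (12.7%) in replicate 2.

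The regions come from chromatin immunoprecipitation and sequencing (ChIP-seq) of whole Drosophila melanogaster embryos, collected from 0 to 24 hours, that carried a transgene for dimm fused to eGFP, pulled down through the tag with an antibody to GFP. The series has 1 group of 2 biological replicates, no second genotype and no second treatment, and chromatin was sonicated to a labelled size range of 200 to 800. Whole embryos mix all tissues, so a weak signal in many cells and a strong one in few cannot be told apart, and where the tagged protein was made is not stated. The files hold peaks and no reads: the depth of the libraries is unknown, a control library was not used here, and the normalization of the authors' signal value is not given in the sources used here.

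Dimm (dimmed) belongs to the basic helix-loop-helix (bHLH) family, whose members bind DNA as dimers at the E-box, a short sequence of the form CANNTG. In Drosophila it is known for setting up the secretory capacity of peptidergic neuroendocrine cells. Intergenic DNA of the fly holds many enhancers, which act on promoters at a distance, and the nearest gene to a bound site is not always the one it acts on.

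The summit sequences of the strongest regions show what kind of DNA the signal peaked on. Below are windows reaching 50 bp to each side of the summit for 12 of the 15 strongest intergenic regions, in order of signal, read on the plus strand of the Release 6 genome (dm6) and named by the nearest protein-coding gene. Capitals mark every E-box (CANNTG, which reads the same form on both strands).
tara, chr3R:16222451-16222551: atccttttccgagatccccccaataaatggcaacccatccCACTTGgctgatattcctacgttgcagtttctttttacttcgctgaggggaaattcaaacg
CG31668, chr2L:2202346-2202446: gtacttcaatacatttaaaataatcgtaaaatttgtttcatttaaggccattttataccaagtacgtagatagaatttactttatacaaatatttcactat
sp3, chr3R:21520301-21520401: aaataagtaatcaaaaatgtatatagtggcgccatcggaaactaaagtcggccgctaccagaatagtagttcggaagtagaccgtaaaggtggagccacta
chinmo, distal, chr2L:1632794-1632894: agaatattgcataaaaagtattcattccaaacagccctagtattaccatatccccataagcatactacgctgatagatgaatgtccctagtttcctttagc
CG7560, chr3L:11418416-11418516: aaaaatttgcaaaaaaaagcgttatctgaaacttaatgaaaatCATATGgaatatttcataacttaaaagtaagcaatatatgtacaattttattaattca
foxo, chr3R:14053552-14053652: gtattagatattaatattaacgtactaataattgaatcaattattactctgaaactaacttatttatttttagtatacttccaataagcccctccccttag
CG10479, chr3L:5976473-5976573: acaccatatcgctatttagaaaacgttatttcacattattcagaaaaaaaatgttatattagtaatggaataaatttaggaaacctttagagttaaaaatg
RasGAP1, chr3L:9855905-9856005: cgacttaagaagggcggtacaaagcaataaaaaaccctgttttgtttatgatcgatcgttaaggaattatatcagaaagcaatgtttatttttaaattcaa
CG17896, chrX:493975-494075: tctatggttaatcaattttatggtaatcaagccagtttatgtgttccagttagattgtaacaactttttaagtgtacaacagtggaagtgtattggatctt
chinmo, middle, chr2L:1638759-1638859: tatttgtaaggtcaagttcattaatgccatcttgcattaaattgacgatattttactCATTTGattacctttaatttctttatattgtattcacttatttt
Sf3b3, chr3L:819678-819778: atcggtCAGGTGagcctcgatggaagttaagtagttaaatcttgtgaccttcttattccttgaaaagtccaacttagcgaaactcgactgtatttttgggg
jp, chr2L:9567455-9567555: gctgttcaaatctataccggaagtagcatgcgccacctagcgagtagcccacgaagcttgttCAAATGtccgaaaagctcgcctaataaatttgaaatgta
Of these 12 windows, 5 held an E-box and 7 held none. Over all 272 regions, 32.7% of summit windows held one. So did 44.5% of windows 500 bp to the higher-coordinate side and 40.1% of those to the lower-coordinate side. Their GC content ran from 19.8% at CG7560 to 45.5% at tara. The window at CG7560 held CATATG, an E-box, in its central part.

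Windows from the ends of the range, picked after their values were seen, show how far the summits differed. The first below had the lowest GC content of all 272, 15.8%. The second had the highest value reached, 65.3%, and the third belongs to the weakest region of the list. Capitals again mark E-boxes.
Ca-alpha1T, chrX:6193346-6193446: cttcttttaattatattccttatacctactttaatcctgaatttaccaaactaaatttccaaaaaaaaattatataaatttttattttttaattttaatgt
CG43815, chr2L:3573341-3573441: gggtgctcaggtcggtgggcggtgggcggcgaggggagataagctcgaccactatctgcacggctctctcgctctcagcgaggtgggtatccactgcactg
CG11313, chr3R:30732714-30732814: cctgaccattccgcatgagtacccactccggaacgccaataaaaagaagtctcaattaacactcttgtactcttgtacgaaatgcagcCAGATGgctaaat
The 6-mer GTAGTA, which on the other strand reads as TACTAC, is described further on as more frequent at summits than beside them. Below, 36 bp around it are shown for 4 of the strongest regions that held it, chosen after the values were seen, with the 6-mer in capitals.
chinmo, chr2L:1632841-1632876: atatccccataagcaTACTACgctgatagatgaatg
CG13898, chr3L:781399-781434: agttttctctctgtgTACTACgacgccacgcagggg
CG43131, chr3R:5113263-5113298: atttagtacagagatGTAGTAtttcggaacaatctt
CG5953, chr2L:16535974-16536009: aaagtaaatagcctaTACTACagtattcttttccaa
A single pair of intergenic regions shared sequence of 25 bp or more. Both lie in the long gap left of Myo81F, and their longest common run was 63 bp, made of a repeated short unit.
Myo81F first region, chr3R:173670-173732: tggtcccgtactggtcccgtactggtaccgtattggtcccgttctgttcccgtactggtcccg
Myo81F second region, chr3R:173293-173355: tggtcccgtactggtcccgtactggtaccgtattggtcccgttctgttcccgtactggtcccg

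Signal at the intergenic regions was lower than at promoters and close to that in introns. The authors' signal value had a median of 82.1 in intergenic regions, against 107 in promoter regions and 85.6 in intronic regions. Its quartiles in intergenic regions were 63.6 and 115.5, and its extremes were 48.4 and 696. The same order between intergenic and promoter regions held in each replicate's own list, where the medians were 54.0 in intergenic and 64.8 in promoter regions in replicate 1, and 59.2 in intergenic and 66.5 in promoter regions in replicate 2. Between intergenic and intronic regions the order turned, with 54.0 in intergenic and 56.4 in intronic regions in replicate 1, and 59.2 in intergenic and 57.5 in intronic regions in replicate 2. Regions are not replicates of a condition, so no test was made of these medians.

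Few of the strongest bound regions were intergenic. They made up 2 of the 50 strongest regions (4.0%, 95% Wilson interval 1.10 to 13.5%), 19 of the strongest 200 (9.5%, 6.17 to 14.4%) and 58 of the strongest 500 (11.6%, 9.08 to 14.7%), beside 15.6% of all. Among the authors' ranked candidates, 312 of 37274 intergenic ones (0.837%) reached a −log10 irreproducible discovery rate (IDR) of at least 2. The share was 4.42% among promoter, 1.28% among intronic and 0.220% among exonic candidates, and 1.32% among all.

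In all, 109 of the 272 (40.1%, 95% Wilson interval 34.4 to 46.0%) overlapped a region in both replicates' own thresholded lists, against 423 of 754 promoter regions (56.1%, 52.5 to 59.6%) and 270 of 650 intronic regions (41.5%, 37.8 to 45.4%). Another 46 overlapped one in replicate 1 alone, 14 in replicate 2 alone and 103 (37.9%) in neither. The pooled signal and the own lists come from the same 2 replicates, so the relation between them is largely fixed in advance, and the counts by signal are a description with no test. Of the 68 strongest intergenic regions 66 were in both own lists, of the next 68 regions 39, of the third 68 regions 4 and of the weakest 68 none. The 38 strongest were all in both, and the first that was not, ranked 39, lay near betaTub60D, a gene for a tubulin of muscle and other tissues.

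**Figure D1:**
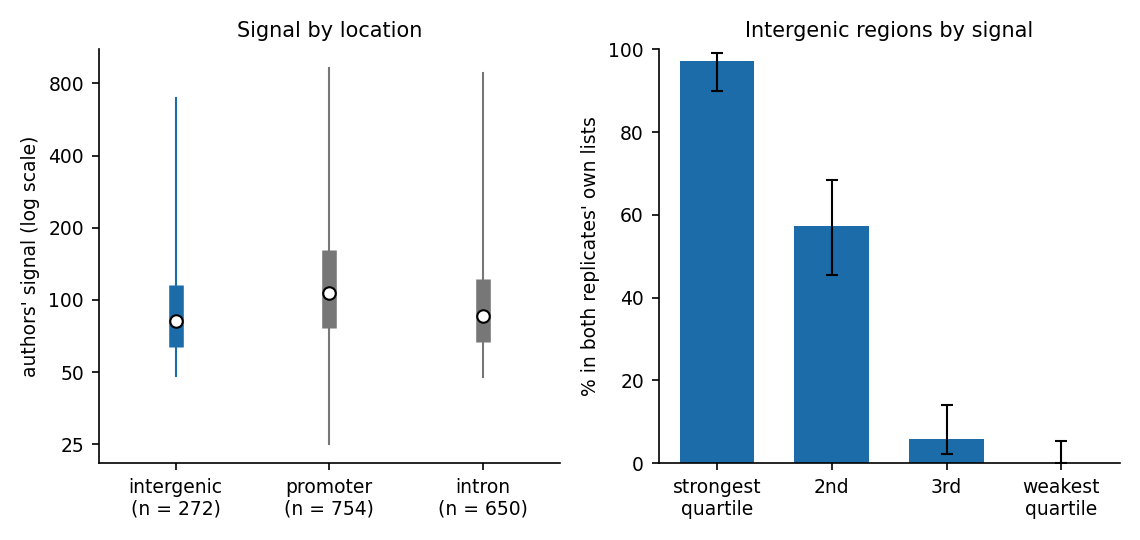
Left: the authors' signal (log scale) for intergenic, promoter and intronic regions, with the median (circle), the middle 50% (thick bar) and the full range (line); the medians are 82.1, 107 and 85.6. Right: the percentage of intergenic regions found in both replicates' own lists, in quartiles of 68 regions from strongest to weakest, with 95% Wilson intervals; it is 97.1% in the strongest quartile and 0% in the weakest.

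The values of the replicates ran together across the intergenic regions. A candidate in both replicates' ranked lists was found for 270 of the 272, and Spearman's rho between the replicates' signals was 0.668 across them, a description over regions that share both libraries. The ratio of replicate 1 to replicate 2 had a median of 0.997 and ran from 0.416 to 2.54, with 261 of the 270 within 2-fold. Replicate 1 was the higher in 133 and replicate 2 in 137. Regions entered the list because both replicates ranked them alike, which fixes part of this relation.

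**Figure D2:**
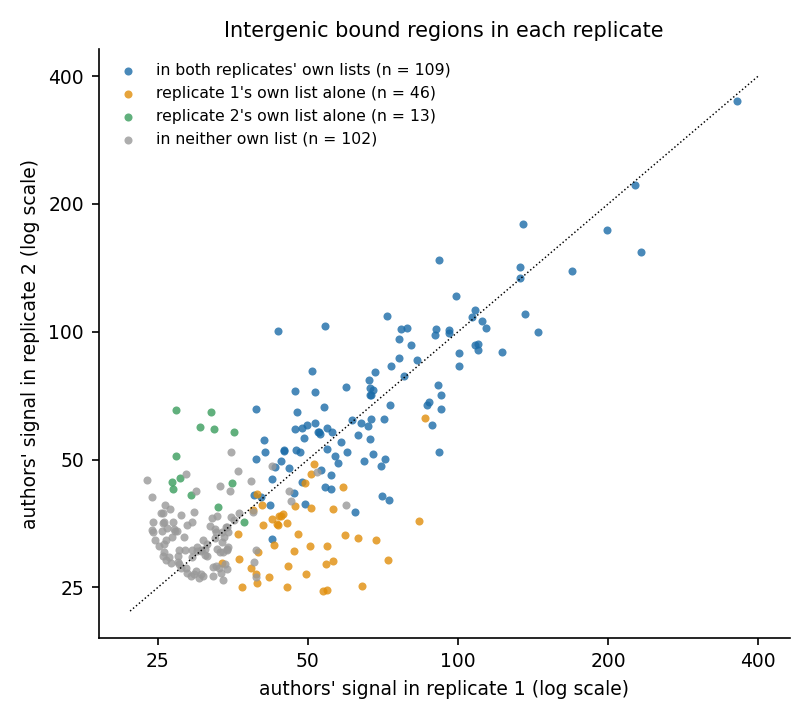
The authors' signal of each intergenic region in replicate 1 (horizontal) and replicate 2 (vertical), both on log scales, coloured by which own list holds the region; the dotted line marks equal values and 270 regions are drawn. Regions in both own lists (blue) fill the upper right, and regions in neither (grey) crowd the lower left.

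The strongest intergenic region lay 894 bp upstream of the TSS of lncRNA:CR45643, a long noncoding RNA gene (chr3R:16222383-16222605). Its nearest coding gene was tara, a trithorax group gene, with its TSS 3150 bp away. The region had a signal of 696, with 362 in replicate 1 and 349 in replicate 2, and ranked 9 among all 1739. The second, inside the gap between COX7AL2 and CG31668 (chr2L:2202303-2202504), had a signal of 449, with 226 in replicate 1 and 222 in replicate 2. The third lay past the end of CycB, which encodes a mitotic cyclin (chr2R:22802886-22803059). It had a signal of 384, with 233 in replicate 1 and 154 in replicate 2. Both replicates gave the tara region the highest value of all 272.

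Other strong regions lay upstream of foxo, RasGAP1 and sp3. A region 3343 bp upstream of foxo, the forkhead factor of insulin signalling (chr3R:14053523-14053653), had a signal of 278, with 133 in replicate 1 and 142 in replicate 2. A region 670 bp upstream of RasGAP1, which encodes a GTPase-activating protein for Ras (chr3L:9855803-9856106), had a signal of 249, with 136 in replicate 1 and 110 in replicate 2. The region 577 bp upstream of sp3 (chr3R:21520281-21520440) had a signal of 372, with 199 in replicate 1 and 173 in replicate 2. In all 3 the replicates lay within 2-fold of each other. The remaining strong regions outside groups were those of CG10479 (signal 273), CG17896 (241), sano (217) and jp, a junctophilin gene (217). Among the 15, the replicates stood furthest apart by ratio at CG17896, on X, with 91.5 in replicate 1 and 148 in replicate 2, and by difference at the CycB region, with 233 in replicate 1 and 154 in replicate 2.

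Most intergenic regions were a few kilobases from a gene start. The median distance to the nearest TSS was 3004 bp, with quartiles of 1313 and 6595 bp, and to the nearest protein-coding TSS it was 5203.5 bp. For 85 regions (31.3%) no protein-coding TSS lay within 10 kb. The nearest TSS belonged to a protein-coding gene at 173 regions, to a noncoding RNA gene at 92 and to a tRNA gene at 7, and 167 summits lay upstream of it and 105 downstream. These sides and distances were not measured for all gene-free DNA over 500 bp from a TSS, so they are a description without a reference. Regions within 2000 bp of a TSS had a median signal of 93.3 (108 regions), and those farther off one of 78.8 (164 regions). Across all 272, Spearman's rho of distance and signal was -0.17, again a description.

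The 4 regions nearest to the 500 bp limit had signals from 49.0 to 273. Just inside it were those 515 bp from Sqor, a sulfide quinone oxidoreductase gene (signal 72.7), 516 bp from CG10479 (273), 517 bp from CG42566 (49.0) and 523 bp from CG5973 (87.6). Just outside, and so counted as promoters, were summits in gene-free DNA 489 bp from CG8854 (74.9), 476 bp from E(spl)m7-HLH (66.6), 475 bp from CG11626 (58.2) and 471 bp from CG6225 (100.4). The weakest region, upstream of CG11313 (chr3R:30732612-30732915), had a signal of 48.4, with 32.7 in replicate 1 and 28.0 in replicate 2.

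Between the arms the number of intergenic regions per megabase of eligible DNA, meaning gene-free DNA over 500 bp from any TSS, differed. It was 9.59 on 3L (87 regions), 9.09 on 2L (61), 7.43 on 3R (57), 5.10 on 2R (38) and 4.90 on X (26), and 6.98 over all chromosomes. In replicate 1's own list 3L had 6.28 and X 3.01 per megabase, and in replicate 2's own list 3L had 5.07 and X 2.07. Thus 3L stood above X in the pooled list and in each replicate, while the order of 3L and 2L turned in replicate 2, where 2L had 5.96. On 3L 24.1% of all bound regions were intergenic, and on X 7.20%. Chromosome 4 had none, though replicate 1's own list had 1 region there (4.08 per megabase). Y had 3, all among the Su(Ste) genes, whose RNAs silence the Stellate repeats in the male germline.

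Gaps between genes that start away from each other held 75 of the 272 regions (27.6%, 95% Wilson interval 22.6 to 33.2%). They make up 20.3% of the eligible bases that lie between genes. Gaps between genes on the same strand held 130 (47.8%, 41.9 to 53.7%), against 52.9% of those bases. Gaps between genes that end towards each other held 65 (23.9%, 19.2 to 29.3%), against 26.8% of those bases. DNA between the outermost gene and a chromosome end is left out of these base shares, and regions there are in none of these kinds of gap. Annotated transposable elements overlapped 3 regions (1.10%), against 10.5% of the eligible bases and 4.94% of the intergenic candidates. How reads from repeats were mapped is not given in the sources used here. On the 7 chromosomes, the only sequences searched, the central 36 bp of the summit window occurred once for 268 of the 272, and up to 92 times for the others.

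Of the 272 intergenic regions, 97 (35.7%) lay within 10 kb of another intergenic region and 125 (46.0%) within 10 kb of any bound region, beside 40.6% of promoter and 44.0% of intronic regions. The share within 10 kb of another intergenic region was 23.5% in replicate 1's own list, 25.4% in replicate 2's own list and 21.6% among the stronger 50% of all regions, each of which holds fewer regions. Groups of 3 or more, with neighbouring summits under 10 kb apart, numbered 12 and held 43 regions, and 7 of the 12 groups lay on 3L.

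The group with the highest signals lay upstream of chinmo, which encodes a BTB zinc finger factor of temporal identity in neuroblast lineages. Its 3 summits spanned 10622 bp on 2L, at 18414, 12449 and 7792 bp upstream of the chinmo TSS. Chinmo was the nearest coding gene, but at all 3 a lncRNA gene had the nearer TSS (CR44603 for the farthest summit and CR45695 for the others). The farthest had a signal of 313, with 135 in replicate 1 and 179 in replicate 2. The middle one had 225, with 112 in replicate 1 and 106 in replicate 2, and the nearest had 205, with 108 in replicate 1 and 92.9 in replicate 2. All 3 were in both own lists.

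A tighter group of 3 lay 6692 to 8175 bp upstream of CG7560, within 1483 bp on 3L. Its signals were 177, 103 and 306, all in both own lists. The nearest coding gene of a further group of 3 on 2R, between lncRNA:CR44761 and Ppa, was RYBP, which encodes a partner of Polycomb group proteins. This group had signals of 128, 76.3 and 247. Its strongest summit had 145 in replicate 1 and 99.7 in replicate 2. In each of these 2 groups the last summit was the strongest, and the RYBP group had 2 of its 3 regions in both own lists.

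Groups of 5 occurred on 3L alone. The first spanned 18869 bp between hng3 and CG13898, around a pair of tRNA:Ile genes, with signals from 60.6 to 203 and 3 of 5 regions in both own lists. The second spanned 6320 bp around lncRNA:CR45737, between Ids, a lysosomal sulfatase gene, and sty, which encodes the signalling inhibitor Sprouty. Its signals ran from 56.8 to 170, and 2 of 5 were in both. The third spanned 17496 bp between NijA, a ninjurin gene, and CG43245, with signals from 69.6 to 122 and again 2 of 5 in both. A group of 4 with CheA75a as its nearest coding gene had signals from 64.0 to 128, with 1 in both.

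The remaining 5 groups of 3 are named here by their nearest coding genes. They were those of Sf3b3, a splicing factor gene, and CG13898 (signals 53.6 to 224), and of CG43401 (83.6 to 210). The CG43401 group lay beside robo2, an axon guidance receptor gene. The others were those of CG6168 (56.0 to 194), CG4218 and CG3473 (64.6 to 115), and Cyt-c1L (72.3 to 100.4). The Cyt-c1L group had no region in both own lists. CG43245 was the nearest coding gene of 7 regions, hng3 and Ids of 5 each.

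**Figure D3:**
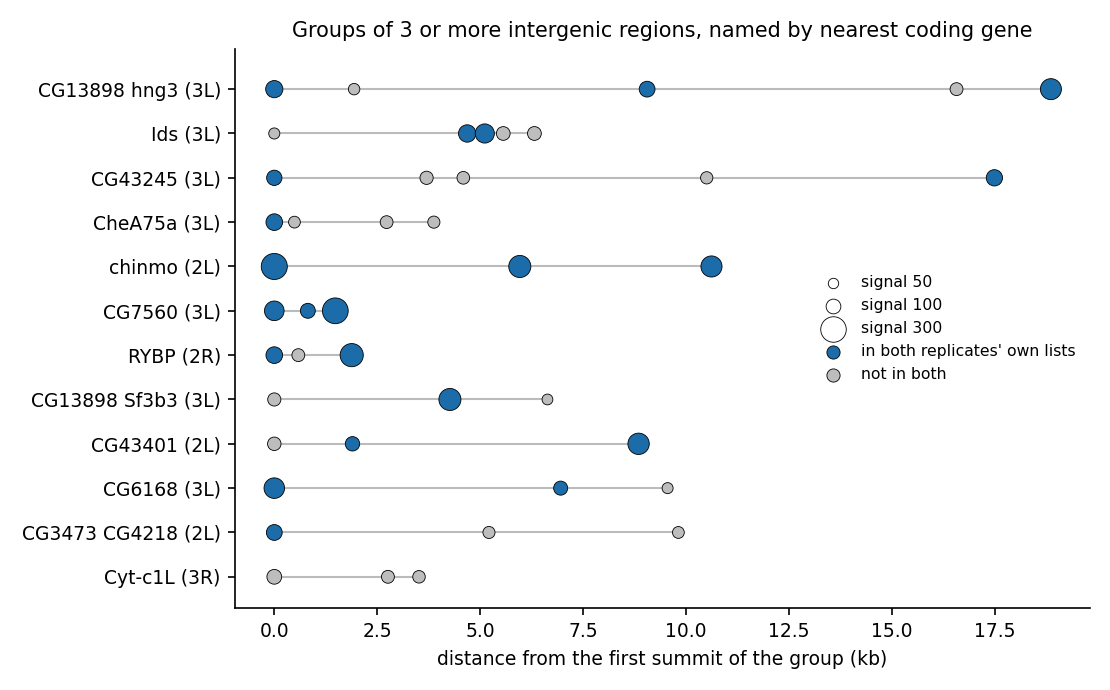
The 12 groups of 3 or more intergenic regions, 1 per line, named by the nearest protein-coding genes and the chromosome arm; points are summits placed by distance (kb) from the first summit, with area proportional to the authors' signal. Blue points are in both replicates' own lists, as all 3 at chinmo and all 3 at CG7560 are.

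Of 88 segmentation, Hox and other homeobox genes, 10 (11.4%) were the nearest coding gene of an intergenic region, and of 32 muscle and mesoderm genes 5 (15.6%), beside 217 of all 13968 protein-coding genes (1.55%). These are shares of genes, and no test was made of them. These shares, and those of the lists below, were not adjusted for the length of gene-free DNA beside each gene. A longer gap leaves more room for a region. The lists are not separate: zfh1 and its region are counted in both. The list of segmentation, Hox and other homeobox genes had 13 regions, 8 of them in both own lists, with a median signal of 93.1, beside 82.1 over all 272.

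A region 4318 bp upstream of slp2, a forkhead gene of segmentation, had a signal of 176, with 80.6 in replicate 1 and 92.9 in replicate 2. One downstream of Dr, a homeobox gene of muscle and neuroectoderm, had 121, with 66.6 in replicate 1 and 55.8 in replicate 2. One downstream of ems, a homeobox gene of the head, had 112, with 57.5 in replicate 1 and 49.1 in replicate 2. These 3 were in both own lists. The POU gene vvl, which acts in the trachea and nervous system, was the nearest coding gene of 3 regions, with signals of 106, 83.8 and 71.3.

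In the muscle and mesoderm list, the T-box genes mid and H15, which act in the heart, had signals of 124 and 106, and the T-box gene Doc2 had 97.1. The mid and H15 summits lay 15251 and 20932 bp downstream of those TSSs and nearer to a lncRNA gene (CR45287 and CR43713), and the Doc2 summit lay 6594 bp upstream. These 3 regions, the strongest of the list, were in both own lists, with 67.4, 54.6 and 48.2 in replicate 1 and 51.6, 53.0 and 52.2 in replicate 2. Of the 5 regions of the list 4 were in both, and the weakest, that of Doc1 with a signal of 49.4, was in neither. In the list of signalling genes, 4 of 51 genes (7.84%) had a region, beside the 1.55% of all protein-coding genes, and wg and its region are also in the segmentation list. The strongest was 5278 bp upstream of ptc, which encodes the Hedgehog receptor, with a signal of 181, 76.9 in replicate 1 and 101.3 in replicate 2. The Wnt gene wg followed with 109 and the BMP ligand gene dpp with 82.8. The dpp region was in replicate 1's own list alone, and that of upd1, with a signal of 66.7, was in neither.

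The genes of the peptidergic programme had a single intergenic region among them. Of 49 neuropeptide and peptide hormone genes, 1 (2.04%) was the nearest coding gene of an intergenic region, a share near the 1.55% of all protein-coding genes. That gene was Nplp2, a neuropeptide-like precursor gene, whose region lay 8270 bp downstream of its TSS with a signal of 64.1, 38.5 in replicate 1 and 27.7 in replicate 2, and was in replicate 1's own list alone. Of 18 genes of peptide processing and release, 0 had one. Of 54 bHLH genes, 2 (3.70%) did. The region of Myc, a growth regulator, lay 17802 bp upstream with a signal of 104 and 47.6 in replicate 2, in whose own list it was, and replicate 1 had no overlapping candidate. That of hry, a pair-rule repressor, lay 20650 bp downstream with 67.9, and was in neither own list, with 33.9 in replicate 1 and 32.9 in replicate 2. In both cases a lncRNA gene had the nearer TSS. Of 53 neuronal and synaptic genes 1 did, the neuroligin gene Nlg3 with 62.5. None of 92 cytoplasmic ribosomal protein genes, 73 mitochondrial ribosomal protein genes or 115 histone genes was the nearest, beside the 1.55% of all protein-coding genes. At that share few or none would fall in lists of these sizes, or among the 18 genes of peptide processing and release.

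The DNA at the summits was poor in G and C. The median GC content of the summit window, 50 bp to each side, was 34.7%, against 42.6% in a window 500 bp to either side. It was lower than on the higher-coordinate side in 177 of 272 regions (65.1%, 95% Wilson interval 59.2 to 70.5%) and than on the lower-coordinate side in 185 (68.0%, 62.3 to 73.3%). Among intergenic regions in replicate 1's own list these shares were 67.7% and 72.9%, and among those in replicate 2's own list 69.1% and 74.8%. At promoter summits the median was 30.7%, with a higher-side flank of 45.5%, and 79.7% of summits (76.7 to 82.4%) were below it. At intronic summits it was 31.7%, with a flank of 41.6%, and 76.2% (72.7 to 79.3%) were below it.

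The weakest quartile of the intergenic regions lacked most of this dip. From the strongest quartile to the weakest, the median GC content at the summit was 32.2%, 32.7%, 34.7% and 41.6%, while the flank stayed between 41.6% and 42.6%. Summits over 50% GC numbered 1, 1, 6 and 20 in the same order. Spearman's rho of GC content and signal over the 272 regions was -0.27, a description. It was -0.24 in promoter regions, -0.22 in intronic regions and -0.28 over all regions, so the relation was not particular to intergenic regions. Among all 37274 intergenic candidates the median was 45.5%.

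**Figure D4:**
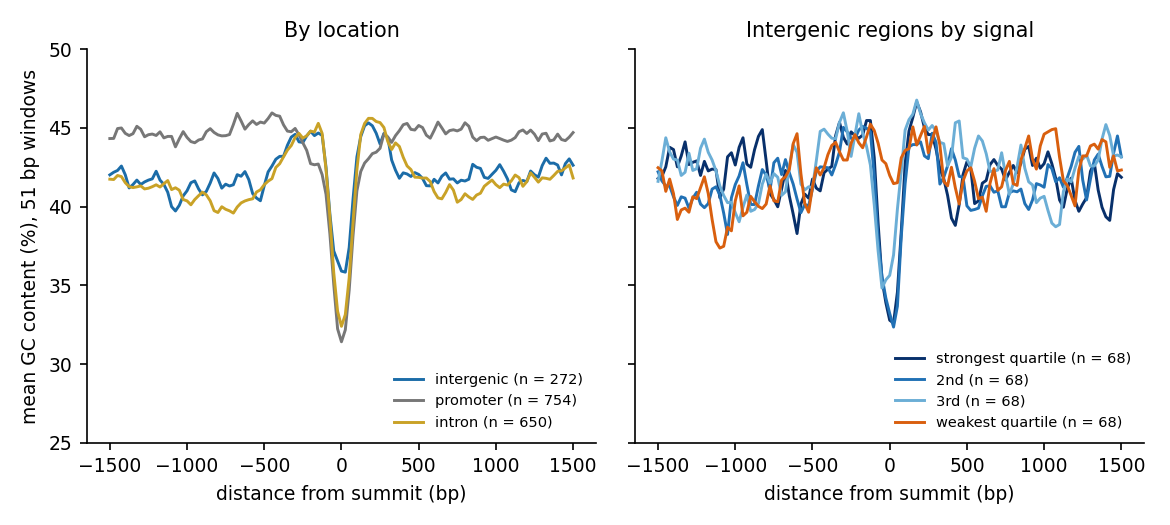
Mean GC content (%) in 51 bp windows by distance from the summit (bp). Left, intergenic, promoter and intronic regions; all 3 dip at the summit, and intergenic regions the least. Right, intergenic regions in quartiles of 68 by signal; the dip is deep in the stronger quartiles and shallow in the weakest (orange).

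The E-box was not more frequent at intergenic summits than beside them. Any CANNTG occurred in 89 of 272 summit windows (32.7%, 95% Wilson interval 27.4 to 38.5%), against 121 (44.5%, 38.7 to 50.4%) on the higher-coordinate side and 109 (40.1%, 34.4 to 46.0%) on the lower. No test was made of the classes pooled. Summit windows had a lower GC content than flanks and were not matched for it, and flanks were not held to gene-free DNA. The part of either in these shares was not tested. The share of summit windows with an E-box was 30.9% in the strongest quartile and 33.8% in the weakest. Summit windows of promoter regions held one in 30.5% and of intronic regions in 37.2%. Of the 10 classes of E-box, 8 were less frequent at summits than in the higher-coordinate flank and 2 more frequent. CATATG was at 14 summits (5.15%) and 11 flanks (4.04%; exact McNemar test, p = 0.69), and its direction turned with the set of regions. Its share at summits minus that in flanks was 1.10 percentage points among the 272, -1.12 in replicate 1's own list, -0.70 in replicate 2's own list and -1.72 among the stronger 50% of all regions.

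Of 25 fixed motifs, the 10 E-box classes and 15 others searched on both strands, 0 (0%) passed an adjusted p under 0.05 in either direction by the exact two-sided McNemar test with Benjamini-Hochberg adjustment. At an unadjusted p under 0.05 the number was also 0. Here too the summit and flank windows were not matched for GC content. By the exact test the nearest were CAAGTG, at 13 summits and 25 flanks (p = 0.0652), and the Grainyhead-type site ACCNGTT, at 4 summits and 11 flanks (p = 0.0923). The site GCCAT, the core of the Pho site, was the most frequent of the 25, at 46 summits and 42 flanks. The others searched were the GAGA factor site (GAGAG), the CA repeat (CACACA), poly-A (a run of 8 A), BEAF (CGATA), the DNA replication element DRE (TATCGATA), M1BP (GGTCACAC), Zelda (CAGGTA), CTCF (AGGNGGC), Su(Hw) (GCNTACTT), the GATA factor site (GATAAG), homeodomain (TAATTA), STAT (TTCNNNGAA) and TCF (CTTTGA). The same test over all 1739 regions called 2 motifs higher and 11 lower. That set holds more regions, and a test over more pairs can call smaller differences, so the counts are not on equal terms.

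**Figure D5:**
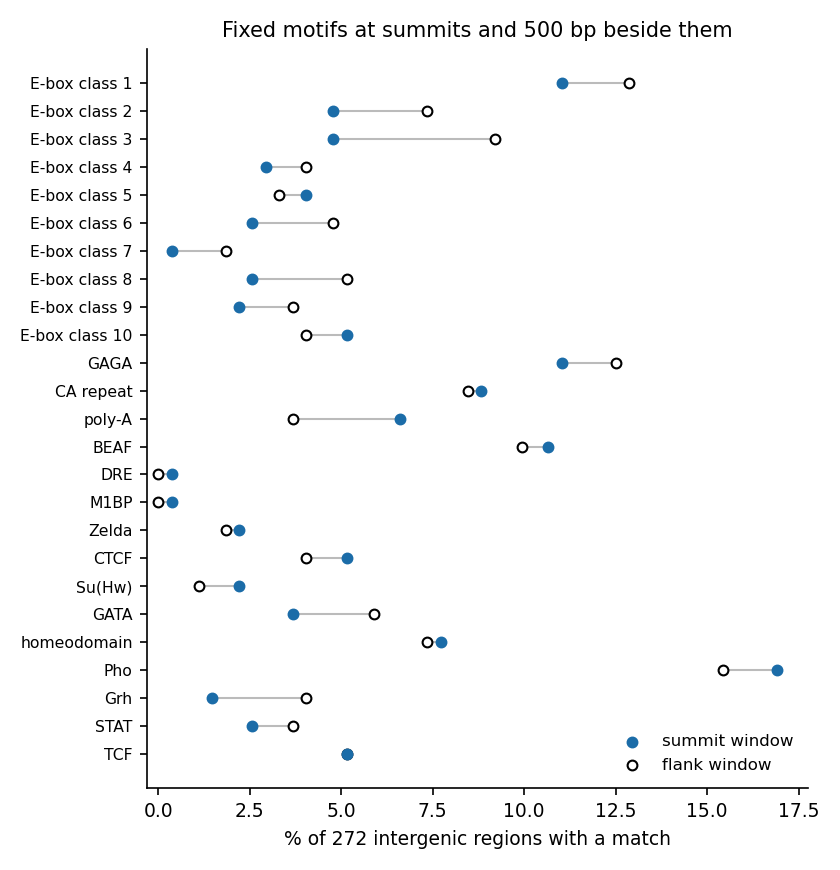
Percentage of the 272 intergenic regions with a match to each of 25 fixed motifs in the summit window (filled) and in the flank 500 bp to the higher-coordinate side (open). The E-box classes are numbered in alphabetical order of their sequence, with CATATG the last; none of the 25 pairs passed the test.

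Of all classes of 6-mers, each with its reverse complement, 5 (0.24%) were more frequent and 2 (0.0962%) less frequent at intergenic summits than in the higher-coordinate flank at an adjusted p under 0.05 by the exact McNemar test, beside 304 (14.6%) and 668 (32.1%) over all 1739 regions. The intergenic regions are fewer, and a test over fewer pairs calls less, so these counts are not on equal terms. At an unadjusted p under 0.05 the numbers in intergenic regions were 75 and 69. The more frequent classes were TATAAA (53 summits, 20 flanks), ATACTA (30 summits, 7 flanks), AAACTA (40 summits, 12 flanks), ATTGTA (32 summits, 9 flanks) and GTAGTA (21 summits, 3 flanks), each with an adjusted p of 0.042. At least 1 of them occurred at 126 summits (46.3%) and in 48 flanks (17.6%), a count made with the classes already chosen by it. ATACTA and GTAGTA overlap where GTAGTAT occurs. By the same exact test the less frequent classes were CAGCGA (4 summits, 25 flanks, adjusted p = 0.042) and CCAGCC (3 summits, 22 flanks, adjusted p = 0.0465). The 5 more frequent classes hold 0 to 2 G or C bases each, and the 2 less frequent hold 4 and 5. Summit windows were poorer in G and C than flanks, and the windows were not matched for this. Whether GC content alone gives these calls was not tested.

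These calls were narrow. With the lower-coordinate flank none of the 7 classes passed the exact test, and 1 other class was called more frequent. Each of the 7 kept its direction, but 4 differed much less from this flank than from the other. AAACTA was at 14.7% of summits, against 9.19% of lower-coordinate and 4.41% of higher-coordinate flanks. ATTGTA was at 11.8% of summits, against 7.35% of lower-coordinate and 3.31% of higher-coordinate flanks. The less frequent CAGCGA was at 1.47% of summits, against 3.31% of lower-coordinate and 9.19% of higher-coordinate flanks, and CCAGCC at 1.10% of summits, against 2.57% of lower-coordinate and 8.09% of higher-coordinate flanks. GTAGTA was at 7.72% of summits and 2.21% of lower-coordinate flanks (adjusted p = 0.342 by the exact test). None of the 7 passed among the 155 of the 272 that overlapped a region in replicate 1's own list, where GTAGTA was at 7.74% of summits and 1.94% of flanks, or among the 123 that overlapped one in replicate 2's own list, where it was at 8.94% of summits and 2.44% of flanks. In promoter and in intronic regions, 4 of the 5 more frequent classes, all but GTAGTA, were also called more frequent at summits. By the exact test, GTAGTA was not called in either, at 3.05% of promoter summits and 2.92% of their flanks (adjusted p = 1.0) and at 3.38% of intronic summits and 2.0% of their flanks (adjusted p = 0.377). Whether GTAGTA differs between intergenic and other summits was not tested.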

How the data were processed

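The authors deposited 8 peak lists on build dm6, per the labels, of which 7 were used. Each deposited peak carries the authors' signal value, whose normalization is not stated, and a deposited summit offset; the authors' ranked lists add the −log10 of the IDR. Which aligner and peak caller were used is not given in the sources used here. Peaks of the conservative thresholded list on 7 chromosomes that overlapped were joined (1770 peaks to 1739 regions), keeping the summit of highest signal. A replicate's value is the strongest overlapping candidate of its own ranked list. The 8 further columns of the pooled ranked list name no sample and were not used. Genes came from Ensembl (BDGP6), without transposable elements, and bases from the RefSeq Release 6 genome, in which 99.9% of 16237 annotated start codons read ATG. Coordinates are 1-based. Motifs in windows of 50 bp to each side of the summit and of a point 500 bp beyond it were compared with McNemar's exact test, two-sided, pairing the windows of a region (scipy 1.17.1), with Benjamini-Hochberg adjustment (statsmodels 0.14.6) over the 25 motifs or all classes of 6-mers; simulated windows were used to test the 6-mer search. Such p-values describe a list, since regions are not replicates, and intervals cover counting error only. Alternatives were each replicate's own list, the list not marked conservative, stronger regions, other TSS distances, coding genes alone, and other flanks, windows and overlaps.

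Regions named are the 15 strongest, groups of 3 or more within 10 kb of each other, the 3 strongest of each of 10 gene lists by nearest coding gene, the weakest, and those nearest to the distance limit; other regions, such as those of betaTub60D and vvl and those on Y, were chosen after their values were seen. Members, lists and rules were chosen with earlier results of these data known. List symbols without a match were Cyt-b561, Kdelr, Side, ladybird, cut, Dl and Trh.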

Additional observations from a re-analysis of the deposited data

How the results depend on the processing

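No paired analysis was possible because the series has 1 group and no contrast between samples. Taking each replicate's own list alone gave 142 to 179 intergenic regions (272 in the conservative list), a share of 12.7 to 15.2%, a median signal of 54.0 to 59.2, a median TSS distance of 2222.5 to 2917 bp, 23.5 to 25.4% within 10 kb of another, and 0 6-mer classes called in either direction. Among the stronger 50% of all regions these were 116 regions, 13.3%, 127, 2110.5 bp and 21.6%, with 86.2% in both own lists and 0 classes called higher and 0 lower. With the limit at 1000 bp the share was 12.9%, the distance 3991.5 bp, the share within 10 kb 37.1%, and 0 classes were called higher and 0 lower. With the limit at 2000 bp there were 164 regions, 9.43%, 5336 bp and 34.1%, with 1 class higher and 0 lower. With protein-coding genes alone the share was 18.7%, the signal 85.8, the distance 5225 bp and the share within 10 kb 38.2%, with 2 classes higher. The list not marked conservative gave 33.8% within 10 kb, 3 classes higher and 1 lower. The lower-coordinate flank gave 1 class higher and 0 lower, a flank at 300 bp 15 and 0, windows of 25 bp to each side 0 and 0, and windows of 100 bp to each side 11 and 1, beside 5 and 2. The cause of these shifts was not tested, other than that the distance limits and the subsets change the regions themselves. The median signals of the own lists are also another measure than the pooled median of 82.1. At the tara region the pooled signal was 696, with 362 in replicate 1 and 349 in replicate 2. No fixed motif was called under any of the 12 alternatives that rescanned the sequences (lowest adjusted p 0.446 by the exact McNemar test), and 19 of the 25 lay on both sides of equality. With depth unknown and no reads, absence from a list cannot be told apart from shallow sequencing.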

Other observations

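Intergenic DNA also held candidates as strong as some of the 272 regions that overlapped none of them. In the authors' ranked list, 387 intergenic candidates that belong to no intergenic region had a signal at or above that of the weakest region (48.4), and the strongest of them had 438. Of the intergenic candidates that overlapped none of the 272, 36 reached a −log10 IDR of at least 2. Of these, 13 overlapped an annotated transposable element, beside 3 of the 272 regions. Whether such candidates overlapped a promoter, intronic or exonic region of the conservative list was not examined.

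On Y, 3 intergenic regions lay among the Su(Ste) genes, with signals of 81.7, 69.6 and 57.6. The first was in both own lists, with 39.0 in replicate 1 and 41.4 in replicate 2. The central 36 bp of the last occurred 15 times on the 7 chromosomes searched. Regions with an Su(Hw)-type site (GCNTACTT) at the summit numbered 6, with a median signal of 145 and 4 in both own lists, against a median of 80.6 for the rest; the site was picked after its values were seen.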
